A study of Saccharomyces cerevisiae with 8 samples.

Results

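SNR41, SNR70 and SNR51 are 3 box C/D small nucleolar RNAs (snoRNAs) of the budding yeast Saccharomyces cerevisiae that are made from 1 shared precursor. Each was represented by 1 probe set, found by its symbol in the array's platform annotation, so the values below are those of 3 of 9335 probe sets, or of 3 of the 5656 genes that a probe set names alone. Total RNA of exponentially growing cells was measured on 8 Affymetrix arrays, 1 for each sample. The groups were the strain labelled rnt1d at 26 C (2 arrays, called biological replicates), the strain labelled rnt1ts at 26 C (1 array) and wild type at 26 C (2 arrays, called biological replicates). At 37 C there was 1 array each for rnt1d, rnt1ts and wild type. The labels do not spell out the alleles or the strain background. Rich medium is named in the design text and complete medium, in some cultures lacking leucine, in the growth protocol, and the medium of each culture is not stated.

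Box C/D snoRNAs pair with ribosomal RNA and direct methylation of the ribose at the paired site, a reaction carried out by the snoRNP proteins Nop1, Nop56, Nop58 and Snu13. SNR41 and SNR70 are known to guide methylation of the small subunit rRNA, and SNR51 of both the small and the large subunit rRNA. In yeast, snoRNAs of a shared precursor are cut apart by Rnt1, the yeast RNase III, which recognises stem-loops in the spacers. Exonucleases such as Rat1, Xrn1 and the nuclear exosome with Rrp6 then trim the ends. By its title the study concerned the signals that make snoRNAs substrates of this RNase. The signal of a probe set is an RNA level over whatever molecules the probes read, and mature snoRNA and uncut precursor cannot be told apart with it. More RNA in each cell and RNA in more of the cells cannot be told apart either.

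In the table of assembly R64 the 3 genes lie next to each other on chromosome XVI, as YNCP0015C (SNR41), YNCP0014C (SNR70) and YNCP0013C (SNR51). All 3 are on the Crick strand, so SNR41 comes first in the direction of transcription, then SNR70, then SNR51. ASR1 is the next gene before SNR41 and NVJ2 the next after SNR51. No sequence of the cluster was used here.

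Signals are given after quantile normalization between the 8 arrays, in array units. The background bound of an array was the brightest of 19 controls against non-yeast RNA, and it ran from 3.48 to 10.7. Each of the 3 snoRNAs was above that bound on 8 of 8 arrays. Precision is limited by how few arrays there are, and the 4 groups with 1 array have no replicate of their own.

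RNT1 was read first, as a check of the labels. Its signal was 1.31 and 2.03 in rnt1d at 26 C and 39.8 in rnt1ts at 26 C, against 181 and 149 in wild type at 26 C. The rnt1d signals were not above background. At 37 C the order did not follow the labels. RNT1 was at 71.4 on the array labelled rnt1d, above background, and at 1.26 on the array labelled rnt1ts, not above background, against 269 in wild type. Genes of mating type and of the mitochondrial genome went against those labels too. The 4 alpha-specific mating genes summed to 128 and 137 in rnt1d at 26 C and to 4890 in rnt1ts at 26 C, but to 2101 on the array labelled rnt1d at 37 C and 128 on the array labelled rnt1ts at 37 C. The 7 a-specific mating genes summed to 1537 and 1359 in rnt1d at 26 C and 49.6 in rnt1ts at 26 C, but to 120 on the array labelled rnt1d and 1787 on the array labelled rnt1ts at 37 C. Of 8 genes of the mitochondrial genome, 0 were above background in rnt1d at 26 C, on either array, and 6 in rnt1ts at 26 C. At 37 C the array labelled rnt1d had 8 above background, and the array labelled rnt1ts had 0. No array was moved to another group, and no direction between the mutant strains is drawn at 37 C.

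SNR41, the first of the precursor, had signals of 1650 and 1571 in rnt1d at 26 C and 348 in rnt1ts at 26 C, against 42.8 and 52.4 in wild type at 26 C. At 37 C it was at 1694 on the array labelled rnt1d and 1592 on the array labelled rnt1ts, against 54.1 in wild type. All 5 mutant arrays lay above all 3 wild type arrays, as they did for 5.93% of all probe sets, and rnt1ts at 26 C lay between the others.

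SNR70, the middle snoRNA, had signals of 3108 and 3588 in rnt1d at 26 C and 1178 in rnt1ts at 26 C, against 147 and 154 in wild type at 26 C. At 37 C it was at 3379 on the array labelled rnt1d and 3492 on the array labelled rnt1ts, against 141 in wild type. The mutant and the wild type arrays did not overlap. The rnt1ts array at 26 C was again the lowest of the mutant arrays, and both mutant arrays at 37 C lay between the rnt1d replicates at 26 C.

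SNR51, the last of the precursor, had signals of 1315 and 1534 in rnt1d at 26 C and 690 in rnt1ts at 26 C, against 86.2 and 84.2 in wild type at 26 C. At 37 C it was at 1341 on the array labelled rnt1d and 1454 on the array labelled rnt1ts, against 81.9 in wild type. Here too the 5 mutant arrays lay above the 3 wild type arrays, as for 5.93% of all probe sets. Again rnt1ts at 26 C was the lowest of the mutant ones. The order of rnt1d at 26 C and the mutant arrays at 37 C was not the same for the 3 members.

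**Figure D1:**
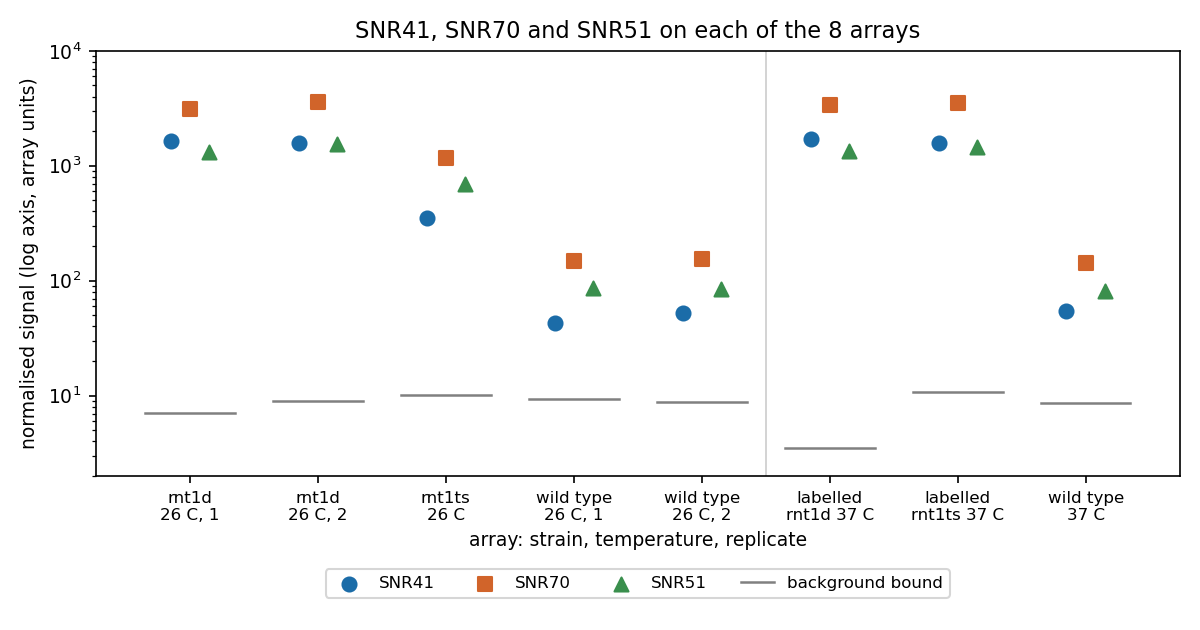
Normalised signal (log axis, array units) of SNR41, SNR70 and SNR51 on each of the 8 arrays, with the background bound of each array as a grey line. The 5 mutant arrays sit above the 3 wild type arrays for each snoRNA, and SNR41 on the rnt1ts array at 26 C (348) sits between rnt1d (1650 and 1571) and wild type (42.8 and 52.4).

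Among all probe sets, SNR41 stood near the middle of the range in wild type, and SNR70 and SNR51 above the middle. All of them stood higher on the mutant arrays. The share of the 9275 probe sets that are not controls lying below SNR41 was 97.4% and 97.3% in rnt1d at 26 C and 86.8% in rnt1ts at 26 C, against 47.2% and 51.9% in wild type at 26 C. For SNR70 it was 99.2% and 99.5% in rnt1d and 95.9% in rnt1ts, against 74.2% and 75.2% in wild type. For SNR51 it was 96.5% and 97.2% in rnt1d and 92.7% in rnt1ts, against 63.3% and 62.8% in wild type. Ranks within an array do not depend on how the arrays are scaled.

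The plot of RNT1 against the cluster shows how the 8 arrays fell. The geometric mean of the 3 signals was 1890 and 2053 in rnt1d at 26 C and 656 in rnt1ts at 26 C, against 81.6 and 87.9 in wild type at 26 C. At 37 C it was 1973 on the array labelled rnt1d and 2007 on the array labelled rnt1ts, against 85.6 in wild type. The array labelled rnt1d at 37 C combined an RNT1 signal above that of rnt1ts at 26 C (71.4 and 39.8) with a cluster level near those of the arrays where RNT1 was not above background.

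**Figure D2:**
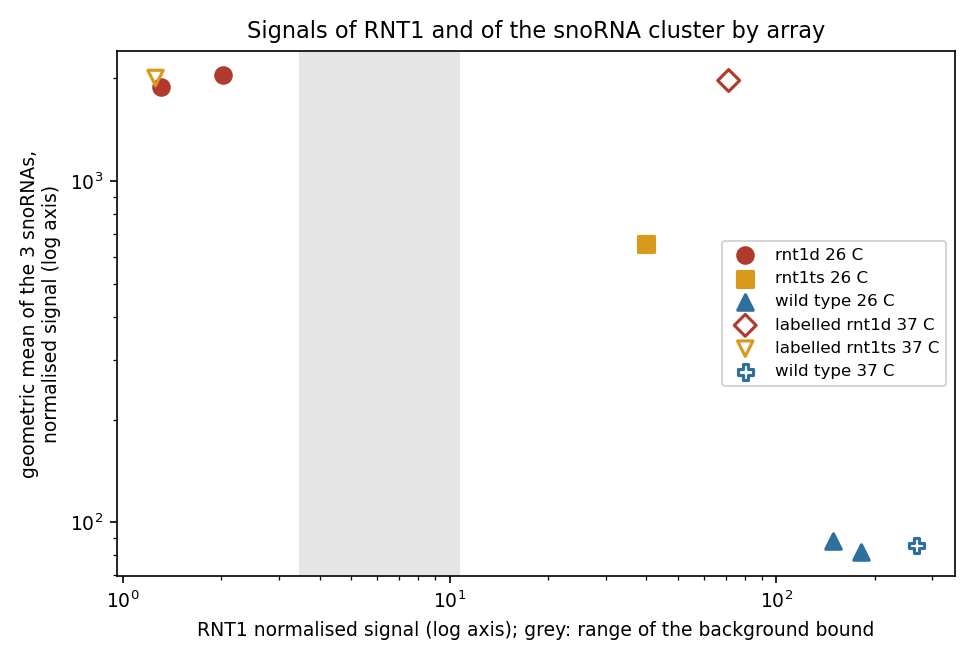
RNT1 signal (x, log axis) against the geometric mean of the signals of SNR41, SNR70 and SNR51 (y, log axis), 1 point per array, with the range of the background bound in grey. The 3 wild type arrays lie at the lower right (81.6 to 87.9), 4 mutant arrays lie between 1890 and 2053, and rnt1ts at 26 C lies at 656.

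In rnt1d at 26 C all 3 members rose over wild type at 26 C. Changes were tested with limma on log2(signal + 16), a scale that understates the change of dim transcripts, with p-values adjusted by Benjamini-Hochberg over 9275 probe sets, and a probe set was called at an adjusted p under 0.05. Each fold given for a member, here and below, is of signal + 16, so it is smaller than the ratio of the printed signals. Of all probe sets 3.54% were called higher in this comparison, and 5.49% in either direction. SNR41 averaged 1611 ± 55.9 in rnt1d and 47.6 ± 6.80 in wild type (SD, n = 2 each), a 25.6-fold rise, or 4.68 on the log2 scale (SE 0.16, limma adjusted p = 0.000151). SNR70 averaged 3348 ± 340 in rnt1d and 151 ± 5.03 in wild type, a 20.1-fold rise (log2 change 4.33, SE 0.15, limma adjusted p = 0.000151). SNR51 averaged 1424 ± 154 in rnt1d and 85.2 ± 1.46 in wild type, a 14.2-fold rise (log2 change 3.83, SE 0.15, limma adjusted p = 0.000264). By size of rise they stood at places 6, 12 and 15 of 9275. Of the 8 mitochondrial genes 6 were called lower in rnt1d, and of the 7 a-specific mating genes 3. The part of these strain differences in the snoRNA levels was not tested.

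The replicate 2 arrays of both groups differed from the others in their spike-in controls. The median deposited signal of 9 such probe sets was 31.5 in rnt1d replicate 2 and 59.8 in wild type replicate 2, against 1.64 to 4.83 on the 6 remaining arrays. Within replicate number 1 the log2 differences of rnt1d and wild type were 4.82 for SNR41, 4.26 for SNR70 and 3.70 for SNR51. Within number 2 they were 4.54, 4.41 and 3.95 in the same order. The rises were thus of like size within each number. With a term for this split of the arrays, the spike-in term, 1425 probe sets were called in either direction in place of 509, the 3 members among them. With median scaling the calls split into 228 higher and 336 lower, against 328 and 181 after quantile normalization.

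In rnt1ts at 26 C all 3 members rose as well, by less, in a comparison of 1 array with 2 in which the lone array is assumed to vary like the pairs. Of all probe sets 0.582% were called higher, and 0.787% in either direction. SNR70 rose 7.17-fold (log2 change 2.84, SE 0.18, limma adjusted p = 0.00505). SNR51 rose 6.98-fold (log2 change 2.80, SE 0.19, limma adjusted p = 0.00505). SNR41 rose 5.73-fold (log2 change 2.52, SE 0.19, limma adjusted p = 0.00659). Against wild type replicate 1, whose spike-in controls were alike, the log2 differences were 2.87, 2.79 and 2.63 in the same order, so the size did not hang on the other array. The calls did: without wild type replicate 1 the limma adjusted p was 0.134 for SNR70 and SNR51 and 0.145 for SNR41, without wild type replicate 2 it was 0.138 for each, and with either left out 0 of all probe sets were called. The rnt1ts array also differed from wild type in mating type genes, 5 of 7 a-specific ones being called lower and 4 of 4 alpha-specific ones higher. The part of such a difference in strain background in the snoRNA levels was not tested.

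**Figure D3:**
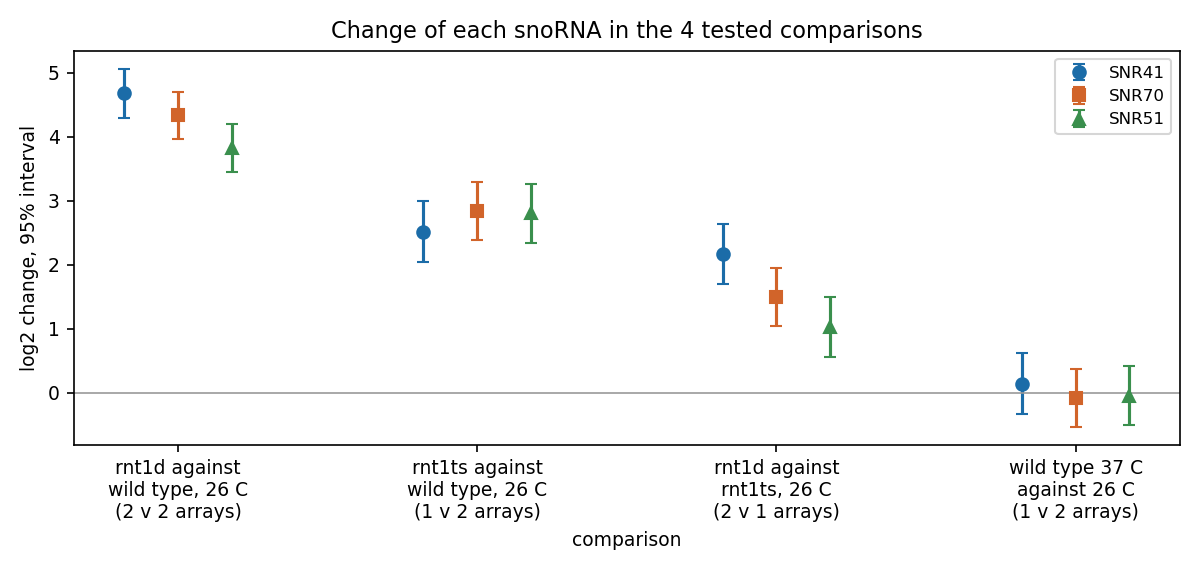
Log2 change of SNR41, SNR70 and SNR51 in 4 comparisons, with 95% intervals from the limma fit and the number of arrays on each side. The rise in rnt1d runs from 4.68 for SNR41 to 3.83 for SNR51, the rise in rnt1ts lies between 2.52 and 2.84, and the intervals of the wild type temperature comparison include 0.

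Set against each other at 26 C, rnt1d exceeded rnt1ts for SNR41 and SNR70. Of all probe sets 0.809% were called higher in rnt1d than in rnt1ts, on 2 arrays against 1, and 1.57% in either direction. SNR41 was 4.47-fold higher (log2 change 2.16, SE 0.19, limma adjusted p = 0.00926) and SNR70 2.81-fold higher (1.49, SE 0.18, limma adjusted p = 0.0288). SNR51 was 2.03-fold higher and not called (1.02, 95% interval 0.56 to 1.49, limma adjusted p = 0.0733). These calls were not stable. On the deposited scale and without any 1 of the 4 replicated arrays no member was called, and with median scaling SNR41 alone was. Without either wild type array the log2 changes stayed at 2.16, 1.49 and 1.02 for SNR41, SNR70 and SNR51. Those arrays enter this comparison only through the shared estimate of the spread. With the spike-in term SNR51 was called too (0.98, limma adjusted p = 0.0368). Both strains are compared with the same wild type arrays above, so the rises in rnt1d and in rnt1ts are not independent of each other.

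The members differed in how far each rose. In rnt1d the order of the log2 changes was SNR41, SNR70, SNR51, which is their order in the precursor, and in rnt1ts SNR41 had the smallest change. Relative to its mean in wild type at 26 C, the within-array log2 ratio of SNR41 to SNR51 was 1.00 and 0.71 in rnt1d at 26 C and -0.28 in rnt1ts at 26 C, against -0.12 and 0.12 on the wild type arrays. At 37 C it was 1.01 on the array labelled rnt1d and 0.80 on the array labelled rnt1ts, against 0.19 in wild type. Each ratio was taken after the offset of the limma tests was added to each signal. With that offset the ratio was above the wild type values in rnt1d at 26 C and on both mutant arrays at 37 C. It was below them on the rnt1ts array at 26 C. Without an offset the rnt1ts ratio at 26 C lay within the wild type values at 26 C. A fall of SNR41 relative to SNR51 in rnt1ts thus hung on the offset.

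The log2 ratio of SNR70 to SNR51 was also above the wild type values in rnt1d at 26 C and on both mutant arrays at 37 C, while rnt1ts at 26 C lay within them. It was 0.51 and 0.50 in rnt1d at 26 C and 0.040 in rnt1ts at 26 C, against -0.046 and 0.046 in wild type at 26 C. At 37 C it was 0.60 on the array labelled rnt1d and 0.54 on the array labelled rnt1ts, against -0.033 in wild type. For SNR41 to SNR70 the values were 0.49 and 0.21 in rnt1d and -0.32 in rnt1ts at 26 C, against -0.078 and 0.078 in wild type. At 37 C that ratio was 0.40 and 0.27 on the arrays labelled rnt1d and rnt1ts, against 0.22 in wild type. With the offset of 16 the wild type value at 37 C thus exceeded that of rnt1d replicate 2 at 26 C. Without an offset it lay below that of rnt1d replicate 2. The rnt1ts ratio of SNR41 to SNR70 at 26 C then lay within the wild type values at 26 C. The differences between members were not tested. The SNR41 rise was the largest in rnt1d under 16 of 17 settings of the processing, the exception being a pseudocount of 64, where SNR70 came first, and it was the smallest in rnt1ts under all 15.

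No member was called between wild type at 37 C and wild type at 26 C. The wild type array at 37 C had signals of 54.1 for SNR41, 141 for SNR70 and 81.9 for SNR51, against means of 47.6, 151 and 85.2 at 26 C. The log2 changes were 0.14 (95% interval -0.33 to 0.61), -0.080 (-0.53 to 0.37) and -0.048 (-0.51 to 0.42), with limma adjusted p = 0.851, 0.928 and 0.960. By limma 0% of all probe sets were called in this comparison of 1 array with 2, and 894 had an unadjusted p under 0.05. On the deposited scale SNR41, SNR70 and SNR51 had changes of 0.51, 0.28 and 0.33, none of them called, and the median of all probe sets there was 0.24.

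At 37 C there was 1 array per strain, so the differences have no replicate check and no test. SNR41 was 24.4-fold higher on the array labelled rnt1d and 22.9-fold higher on the array labelled rnt1ts than in wild type. SNR70 was 21.6-fold and 22.3-fold higher, and SNR51 13.9-fold and 15.0-fold higher. At least 8-fold higher signals were found for 0.367% of all probe sets on the array labelled rnt1d and 0.291% on the array labelled rnt1ts, and at least 2-fold higher ones for 2.58% and 3.59%. Those 2 arrays differed from each other by -0.089, 0.047 and 0.12 log2 units for SNR41, SNR70 and SNR51 (labelled rnt1ts minus labelled rnt1d), while RNT1 differed by -2.34.

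Both mutant arrays at 37 C lay close to rnt1d at 26 C and above rnt1ts at 26 C, whichever label is taken. Their log2 differences from the rnt1d mean at 26 C ran from -0.082 to 0.072 over the 3 members. Over rnt1ts at 26 C, SNR41 was 4.70-fold higher on the array labelled rnt1d at 37 C and 4.42-fold higher on the array labelled rnt1ts at 37 C. SNR70 was 2.84-fold and 2.94-fold higher, and SNR51 1.92-fold and 2.08-fold higher, in the same order. A change of the mutant effect with temperature was not tested.

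No neighbour of the cluster on the chromosome was called, which does not set the neighbours apart, as few probe sets were called at all. The share called in either direction over all probe sets was 5.49% in rnt1d and 0.787% in rnt1ts. Of the 5 probe sets for the 2 nearest measured genes on each side, 0 were called in rnt1d or in rnt1ts at 26 C, by limma and under each alternative run. ASR1, which lies just before SNR41 on the same strand and encodes a ubiquitin ligase, had signals of 72.4 and 45.7 in rnt1d and 26.5 in rnt1ts, against 35.3 and 32.5 in wild type at 26 C. Its log2 change in rnt1d was 0.57 (95% interval -0.0011 to 1.13, limma adjusted p = 0.215). At 37 C ASR1 was at 77.7 on the array labelled rnt1d and 66.9 on the array labelled rnt1ts, against 31.6 in wild type. Both rnt1d arrays at 26 C and both mutant arrays at 37 C thus had more ASR1 signal than every wild type array. The rnt1ts array at 26 C had less. This split sets 1 mutant array apart and was drawn with the values known, and the share of all probe sets with it was not counted. The stricter split, every mutant array above every wild type array, held for 5.93% of all probe sets and not for ASR1.

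NVJ2, which follows SNR51 on the same strand and encodes a lipid-binding protein of membrane contact sites, had signals of 42.8 and 44.0 in rnt1d and 52.4 in rnt1ts, against 41.0 and 54.8 in wild type at 26 C. At 26 C the mutant values lay within the spread of the wild type arrays. At 37 C NVJ2 was at 27.7 on the array labelled rnt1d, below every wild type array. It was at 34.1 on the array labelled rnt1ts, against 33.0 in wild type. RDS3, a splicing factor gene on the opposite strand beyond ASR1, had log2 changes of -0.40 in rnt1d and -0.85 in rnt1ts (limma adjusted p = 0.323 and 0.420). The dimmer and the brighter probe set of YPR089W, beyond NVJ2, had changes of 0.035 and 0.47 in rnt1d and -0.23 and 0.12 in rnt1ts, with none called.

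**Figure D4:**
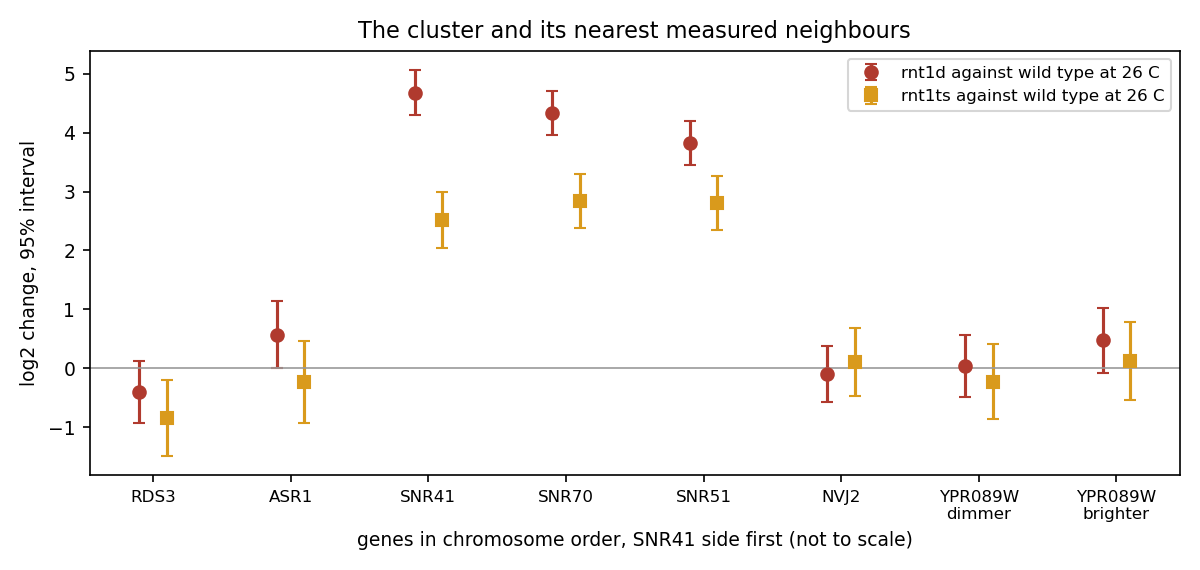
Log2 change with 95% interval of SNR41, SNR70, SNR51 and their nearest measured neighbours in chromosome order, for rnt1d and rnt1ts against wild type at 26 C (horizontal spacing not to scale). The 3 snoRNAs lie between 3.83 and 4.68 in rnt1d, while ASR1 is at 0.57 and NVJ2 at -0.096.

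Other box C/D snoRNAs that are cut from shared precursors rose in rnt1d too. Of 14 such snoRNAs outside the cluster, 13 were called higher and 0 lower, with a median log2 change of 3.24, against a median of -0.029 over all 9275 probe sets. SNR55 rose by 5.47 and SNR73 by 4.54, and SNR74 had a log2 change of 4.69, with wild type signals of 8.15, not above background, and 13.9. SNR128, which shares a precursor with SNR190, was not called at 0.29 (limma adjusted p = 0.416). Of the 14, 10 changed by less than each member of the cluster. Without wild type replicate 2, 8 of the 14 were called higher.

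In rnt1ts, 9 of those 14 were called higher and 0 lower, with a median log2 change of 1.88, and 11 changed by less than each member. Against rnt1ts, rnt1d was called higher for 6 of 14. On the deposited scale the counts were 4 in rnt1ts and 1 in rnt1d against rnt1ts. Without wild type replicate 1 or without wild type replicate 2 both counts were 0, and without either rnt1d array the count against rnt1ts was 1. The count against rnt1ts was 11 with the spike-in term, and 11 and 10 without the lowest 25% and 50% of probe sets.

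Box C/D snoRNAs with a promoter of their own were divided. Of 19 measured, 8 were called higher in rnt1d and 1 lower, with a median log2 change of 0.54. Not all of them were detected: 14 of the 19 were above background on each wild type array at 26 C, and 17 and 16 on the rnt1d arrays. SNR71 rose by 4.43, above SNR70 and SNR51, while SNR50 rose by 3.27, SNR48 by 3.15 and SNR13 fell by 1.24. The count of lower calls was 0 on the deposited scale and without any 1 of the 4 replicated arrays. It was 2 with the replicate block, with the spike-in term, with a pseudocount of 1, without the variance trend and without the lowest 25% of probe sets. Without wild type replicate 1 or without wild type replicate 2, 4 of the list were called higher. In rnt1ts 6 of 19 were called higher and 0 lower, with a median of 0.67. That count was 3 on the deposited scale, with a pseudocount of 64 and without rnt1d replicate 1, and 0 without either wild type array.

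No box H/ACA snoRNA, the class that guides pseudouridylation, was called higher. Of 16 measured, 0 were called higher and 1 lower in rnt1d, with a median log2 change of -0.19 and a range from -1.14 to 0.25. Over all probe sets 3.54% were called higher and 5.49% in either direction. Counts this low thus do not set the class apart from probe sets in general. SNR11 fell by 0.94 (SE 0.18, limma adjusted p = 0.0430), a call lost on the deposited scale and when any 1 of the 4 replicated arrays was left out. SNR8 and SNR5 had changes of -1.14 and -0.68 and were not called. With the replicate number as a block they were called lower (limma adjusted p = 0.00515 for SNR8 and 0.0339 for SNR5), and 4 of the 16 were called lower with the block and with the spike-in term. That count was 3 and 2 without the lowest 25% and 50% of probe sets, and 2 with a pseudocount of 1. With the block and with the spike-in term 1439 and 1425 of all 9275 probe sets were called in either direction. In rnt1ts 0 of 16 were called in either direction, against 0.787% of all probe sets, with a median of 0.064.

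**Figure D5:**
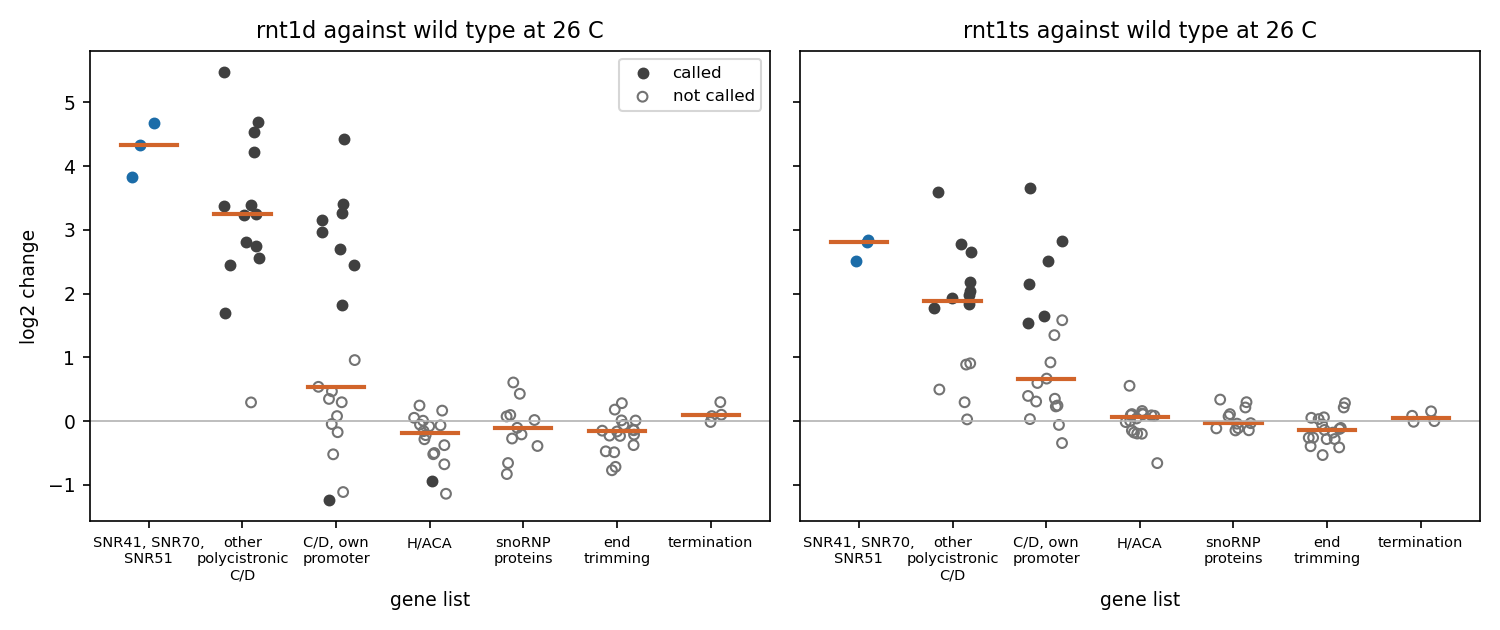
Log2 change over wild type at 26 C in rnt1d (left) and rnt1ts (right) for SNR41, SNR70 and SNR51 and for 6 gene lists, 1 point per gene, filled where called, with the median of each list as a bar. The medians of other polycistronic box C/D snoRNAs are 3.24 in rnt1d and 1.88 in rnt1ts, while box H/ACA snoRNAs and the protein genes lie around 0.

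The mRNAs of the machinery that acts on these snoRNAs were not called in the main fit, though some were under other settings. Over all probe sets 5.49% were called in rnt1d and 0.787% in rnt1ts, in either direction. An absence of calls in lists this short thus does not set them apart. Of 11 genes for box C/D snoRNP proteins and their assembly, 0 were called in rnt1d, with a median log2 change of -0.10. The smallest p-values belonged to RVB2, an assembly ATPase gene (-0.66, limma adjusted p = 0.110), NOP56, a core protein gene (-0.83, limma adjusted p = 0.122), and HIT1, an assembly factor gene (0.61, limma adjusted p = 0.156). Of 17 genes for the trimming of snoRNA ends 0 were called, with a median of -0.16. Among them LHP1, which encodes the La protein, had -0.72, MTR4, a helicase gene, had -0.77, and RRP6, the nuclear exosome nuclease gene, had -0.47 (limma adjusted p = 0.103, 0.198 and 0.202). With the spike-in term, and also with the replicate block, 2 genes of each of these lists were called lower. They were RVB2 and NOP56 in the first and LHP1 and MTR4 in the second. Under those fits 1425 and 1439 of all 9275 probe sets were called in either direction. With median scaling 1 gene of the first list was called lower, and without the lowest 50% of probe sets 1 of the second, LHP1. Of 4 genes for termination at snoRNA genes 0 were called, NRD1, PCF11 and SEN1 having changes of 0.30, 0.10 and 0.080. In rnt1ts 0 genes of these 3 lists were called, with medians of -0.031, -0.14 and 0.043.

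The members resembled each other closely over the arrays. Pearson's r over the 8 arrays was 0.998 for SNR70 and SNR51, 0.995 for SNR41 and SNR70 and 0.988 for SNR41 and SNR51, a description of points that fall into high and low groups and share array, strain and scaling. Of 3960 other probe sets with 1 gene and a mean above the median, the 8 closest to the mean profile of the members were SNR74, SNR72, SNR67, SNR57, SNR77, BGL2, SNR73 and SNR56, with r from 0.996 down to 0.990. Of these 8, 6 are polycistronic box C/D snoRNAs from other precursors and SNR56 is a box C/D snoRNA with its own promoter. SNR67, the brightest of the 6, had signals of 3630 and 4069 in rnt1d and 2175 in rnt1ts at 26 C, against 579 and 541 in wild type at 26 C. BGL2, a cell wall glucan enzyme gene, followed the same arrays with small differences, 1707 and 1802 in rnt1d and 1558 in rnt1ts, against 1324 and 1317 in wild type, and was not called (log2 change 0.41 in rnt1d, limma adjusted p = 0.153).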

How the data were processed

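The deposited values are linear intensity signals, 1 for each probe set. Per the submitters' processing notes the authors used MAS5. Its version and scaling target, and the genome build, are not stated. Median deposited signals ran from 31.0 to 69.5 over the 8 arrays. All 9335 probe sets, 60 controls included, were quantile normalized together, and log2(signal + 16) was tested in R 4.3.3 with limma 3.58.1 as a fit of 6 group means over 8 arrays, with a variance trend, 2 residual degrees of freedom and two-sided tests. Of 9275 probe sets tested, 6504 name 1 gene, all of them found in a RefSeq table of assembly R64, whose coordinates are not printed because the files name no build. The fit was tested on simulated data. The members, gene lists and settings were chosen with earlier results of these data known. Genes named were the members, RNT1, the 2 nearest measured genes on each side, the 8 most alike probe sets and up to 3 genes of each snoRNA or processing list, called ones first and then by smallest p; SNR128 and SNR13 were singled out after their values were seen. Replicate numbers 1 and 2 coincide with the split of the arrays by spike-in controls, and same-numbered deviations of rnt1d and wild type correlated over probe sets (r = 0.311). The labels call the pairs biological replicates without saying more. A planned search for stem-loops in the spacers was not run, as no sequence was used here. Alternatives were other scalings, pseudocounts, filters, fits and left-out arrays.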

Additional observations from a re-analysis of the deposited data

How the results depend on the processing

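For rnt1d against wild type at 26 C the 3 members were called under all 16 alternatives, with log2 changes of 3.91 to 5.06 for SNR41, 3.99 to 4.46 for SNR70 and 3.31 to 4.04 for SNR51, and with the replicate block (4 arrays) among them. The count of all probe sets called was 1439 with the replicate block, 1425 with the spike-in term (chosen after seeing the data), 100 on the deposited scale, 900 and 766 without the lowest 25% and 50%, and 33 to 241 with 1 array left out, against 509. The pairing changed no member's call. For rnt1ts against wild type the counts were 113 without the lowest 25%, 148 with the spike-in term and 0 to 51 with 1 array left out, against 73. The members kept their sign, at 2.41 to 2.63 for SNR41, 2.81 to 2.87 for SNR70 and 2.79 to 2.82 for SNR51 with 1 array left out, and members called ran from 0 to 3. For rnt1d against rnt1ts, SNR41 and SNR70 were at 1.70 and 0.95 on the deposited scale, and SNR70 at 1.10 after median scaling, none of them called. With 1 array left out they were at 2.13 to 2.20 and 1.39 to 1.59, with 0 members called (adjusted p 0.0557 to 0.180). Members called were 0 on the deposited scale, and 1 after median scaling. SNR51 was called at 1.02 without the lowest 25% or 50% and at 0.98 with the spike-in term. Probe sets called were 56 with the deposited scale, 376 and 337 without the lowest 25% and 50%, 97 with median scaling, 428 with the spike-in term and 10 to 45 with 1 array left out, against 146. The calls there split into 15 higher and 41 lower on the deposited scale, and 37 and 60 after median scaling, against 75 and 71. For wild type at 37 C against 26 C, SNR70 and SNR51 turned to 0.28 and 0.33 on the deposited scale and SNR41 was at 0.51, where the median of all probe sets was 0.24, and 14 probe sets were called there, 3 and 2 without the lowest 25% and 50%, 2 with a pseudocount of 64 and 4 with the spike-in term, against 0. Leaving out both doubtful 37 C arrays (chosen after seeing the data) gave 522, 64 and 149 calls for the 3 mutant comparisons.

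At 37 C, differences of the array labelled rnt1d from wild type were 4.39, 4.21 and 3.56 for SNR41, SNR70 and SNR51 on the deposited scale, then 4.37, 4.21 and 3.55 after median scaling, 4.94, 4.57 and 4.02 with a pseudocount of 1 and 3.90, 4.07 and 3.27 with one of 64. For the array labelled rnt1ts they were 4.31, 4.35 and 3.68, then 3.78 for SNR51 with median scaling, 4.85, 4.62 and 4.13, and 3.81, 4.11 and 3.38. Among uncalled neighbours, signs turned on the deposited scale for the brighter YPR089W probe set in rnt1d against rnt1ts (-0.0015), NVJ2 in rnt1d (0.20), ASR1 and the dimmer YPR089W in rnt1ts (0.085 and 0.042), and ASR1 and the brighter YPR089W with temperature (0.25 and 0.22). RDS3 with temperature turned to -0.038 with median scaling and the brighter YPR089W in rnt1ts to -0.077 with the spike-in term. With 1 array left out NVJ2 ran from -0.25 to 0.060 in rnt1d and from -0.049 to 0.26 in rnt1ts, and PCF11 reached -0.015 in rnt1d. The dimmer YPR089W ran from -0.16 to 0.23 in rnt1d, and the brighter reached -0.033 in rnt1ts and ran from -0.22 to 0.093 with temperature. On the deposited scale the median of all probe sets was 0.12 in rnt1d and 0.30 in rnt1ts. Of the 8 most alike probe sets 7 or 8 were shared under each scaling and pseudocount.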
